A study of Homo sapiens with 8 samples.

Results

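The untreated normal human intestinal epithelial cells (hIECs) of the series were the 2 libraries labelled as controls at 10 days, out of 8 libraries in all, and they alone are described here. The cells were made from H9, a single human embryonic stem cell line. The stem cells had been kept on mouse embryonic fibroblasts, and they were taken through definitive endoderm with activin A and through hindgut with FGF4 and CHIR99021, a WNT pathway activator. They were then grown as hIEC progenitors with EGF, R-spondin 1 and insulin and differentiated on Transwell inserts in medium with EGF, valproic acid (a histone deacetylase inhibitor), Wnt-C59 (a blocker of WNT secretion) and serum. The group received neither particulate matter (PM10) nor the cytokines IFNγ and TNFα, and no allele was altered. RNA-seq of poly-A RNA without strand information gave an FPKM value, the fragments per kilobase of transcript for each 1000000 fragments, for 60558 genes, and the 19944 protein-coding genes outside the mitochondrial genome were ranked by the mean of both libraries. Nothing in the labels says whether the 2 libraries came from separate cultures, so the SDs given (n = 2) may measure technical spread only.

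A differentiated intestinal epithelium is a sheet of polarised cells that are joined by E-cadherin and claudins, filled with keratins and covered by microvilli built on villin. Its identity is set by transcription factors such as CDX2 and HNF4A, and absorptive enterocytes, mucus-secreting goblet cells, antimicrobial Paneth cells and hormone-secreting enteroendocrine cells arise from LGR5-positive stem cells. Mesenchymal cells lie beneath that sheet. They are held by an actin and vimentin cytoskeleton and secrete the collagens, fibronectin and elastic fibre proteins of the extracellular matrix.

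The lowest value above 0 was 0.164 FPKM in library 1, shared by 44 genes, and 0.214 FPKM in library 2, shared by 40 genes (within 1e-05 FPKM), and these were read as what a mean depth of 1 over a transcript is worth. Read this way, the libraries held 6.11 and 4.67 gigabases of aligned sequence, an FPKM of 1 stood for a mean depth of 6.11 and 4.67, and a gene listed at 0 lay under a depth of 1. Genes of the mitochondrial genome took 17.02% of the FPKM sum in library 1 and 24.2% in library 2. FPKM is scaled by gene length, so levels are compared between genes below, and every level is an FPKM unless a log2 difference is named.

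The label names epithelial cells, and the defining genes of an intestinal epithelium were listed at 0 in both libraries. CDX2, CDH1 (E-cadherin), VIL1 (villin), LYZ (lysozyme of Paneth cells), MUC2 (the main mucin of goblet cells) and CHGA (chromogranin A of endocrine cells) were all at 0. The study reported RNA of CDX2, VIL1, LYZ, MUC2, CHGA, SOX9 and LGR5 in hIECs by PCR. Its staining of hIECs and organoids, described together, also covered the proteins CDX2, villin, LYZ, MUC2, CHGA and SOX9. It showed E-cadherin and KLF5 by staining only, so for these RNA is set beside protein. The genes at 0 here are 6 of the 9 that the study used as markers of such cells. The other 3 were above 1 FPKM. SOX9, a factor of progenitors in gut and cartilage alike, stood at 14.97 and 13.5 FPKM. LGR5, the stem cell receptor for R-spondins, stood at 2.63 and 2.01 FPKM. KLF5, a zinc finger factor of proliferating crypt cells, stood at 1.65 and 1.44 FPKM.

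The 6 abundance markers were chosen with earlier results of these data known, so their high levels are a description only. The 4 genes of mesenchymal matrix and cytoskeleton stood above the 2 keratins. SPARC, a collagen-binding matrix glycoprotein, stood at 1089 FPKM in library 1 and 998 in library 2 (1043 ± 64.0, rank 31). COL3A1, the chain of type III collagen, stood at 1034 and 1014 (1024 ± 13.9, rank 33). FN1, fibronectin, stood at 1001 and 1028 (1014 ± 19.0, rank 35). The values of these 3 genes overlapped, so their order is not set by 2 libraries. VIM, the intermediate filament protein vimentin, followed at 923 and 904 (914 ± 13.96, rank 51), below all values of the first 3. KRT8, a keratin of simple epithelia, stood at 373 and 383, and its partner KRT18 at 266 and 265. The keratin values did not overlap with those of vimentin or with each other, and both keratins lay within the 490 genes of at least 100 FPKM. In a bulk sample, fewer cells of a type and less RNA per cell cannot be told apart.

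**Figure D1:**
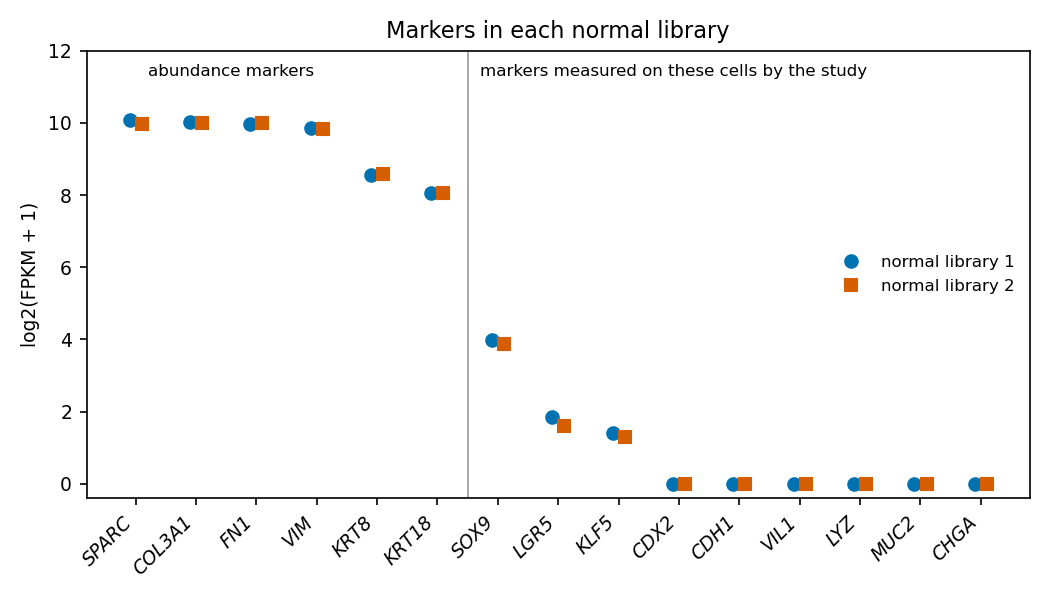
Levels of 6 abundance markers and the 9 genes that the study used as cell markers, as log2(FPKM + 1) in normal library 1 (circles) and library 2 (squares). The first 6 lie far above SOX9, LGR5 and KLF5, and the last 6 genes lie at 0 in both libraries.

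Of the 19944 genes, 11799 (59.2%) had a mean of at least 1 FPKM, 4912 (24.6%) of at least 10, 490 (2.46%) of at least 100 and 37 (0.186%) of at least 1000. In both libraries 5838 genes (29.3%) were listed at 0, and 558 more were listed at 0 in one of them. The sum was carried by few genes. The 10 most abundant took 6.88% of it, the 100 most abundant 30.8%, and 359 genes made up 50%. The 2 libraries shared 91 of their 100 most abundant genes and 23 of their 25.

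**Figure D2:**
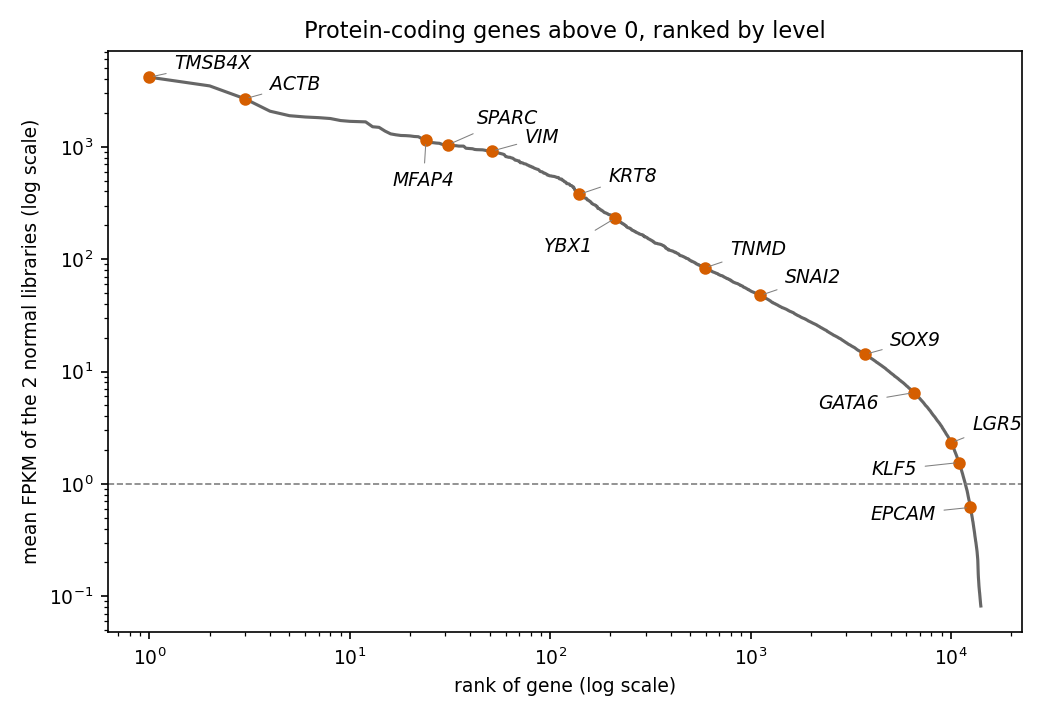
Mean FPKM of the 2 normal libraries against the rank of each protein-coding gene above 0, both on log scales, with the line at 1 FPKM dashed. SPARC, VIM and KRT8 lie on the high shoulder of the curve, SOX9 lies lower on the slope, and EPCAM lies below 1 FPKM.

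The most abundant transcript was TMSB4X, which encodes thymosin beta 4, a protein that binds monomeric actin, at 4133 FPKM in library 1 and 4191 in library 2. Its relative TMSB10 followed at 3302 and 3661. ACTB, cytoplasmic beta-actin, was the third at 2680.1 and 2669. TIMP1, a secreted inhibitor of matrix metalloproteinases, was the fourth at 1946 and 2201. The values of each of these 4 genes lay apart from those of the next, which was EEF1A1, the elongation factor that brings aminoacyl-tRNA to the ribosome, at 1897 and 1885. From there on the order was loose, and in 19 of the 24 neighbouring pairs among the first 25 genes the libraries' values overlapped.

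Of the 25 most abundant genes, 15 encoded proteins of the cytosolic ribosome, led by RPS18 (1910.2 and 1772 FPKM), RPS27 (1911 and 1722) and RPS24 (1643 and 1781). Counted over the whole family, 81 of 83 ribosomal protein genes had at least 10 FPKM, 76 had at least 100, and together they took 18.0% of the sum in library 1 and 19.0% in library 2. Pseudogenes named after ribosomal proteins held a further 3.13% of the family's own sum, so reads may have been split between copies. The pseudogenes of EEF1A1 held 29.0% of its level, and its value is uncertain to that extent. Those of KRT8 and KRT18 held 1.49% and 0.16%.

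The remaining genes of the first 25 belonged to growth, cytoskeleton and matrix. TPT1, a translationally controlled growth protein, stood at 1718 and 1851 FPKM. ACTG1, cytoplasmic gamma-actin, stood at 1762 and 1607, and TPM1, a tropomyosin that lies along actin filaments, at 1441 and 1317. LGALS1, a galactoside-binding lectin common in mesenchymal cells, stood at 1608 and 1724. MFAP4, a protein of elastic microfibrils, stood at 1064 and 1212 and was the highest gene of the extracellular matrix list.

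Promoters of the genes these levels turn on are shown to place 3 abundant genes and an abundant contractile gene beside a tendon gene and the intestinal factor listed at 0. Each run holds the 100 bases before the start, 5′ to 3′ on the gene's strand, from RefSeq on GRCh38.p14. Capitals mark TATAA, the core of a TATA box, and GGGCGG, a GC box, on either strand (as TTATA and CCGCCC when reversed). The windows are chrX:12975010-12975109 (plus strand) for TMSB4X, chr2:84905556-84905655 (plus) for TMSB10, chr2:215436069-215436168 (minus) for FN1, chr10:88952774-88952873 (minus) for 1 of the 2 starts of ACTA2, chrX:100584836-100584935 (plus) for TNMD and chr13:27969316-27969415 (minus) for CDX2.
TMSB4X: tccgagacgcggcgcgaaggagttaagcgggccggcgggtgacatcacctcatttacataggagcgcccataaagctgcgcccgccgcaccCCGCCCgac
TMSB10: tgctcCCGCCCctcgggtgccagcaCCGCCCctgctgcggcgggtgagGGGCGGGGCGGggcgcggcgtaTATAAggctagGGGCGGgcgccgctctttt
FN1: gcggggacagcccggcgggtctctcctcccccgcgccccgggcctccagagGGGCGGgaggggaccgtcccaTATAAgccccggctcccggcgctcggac
ACTA2: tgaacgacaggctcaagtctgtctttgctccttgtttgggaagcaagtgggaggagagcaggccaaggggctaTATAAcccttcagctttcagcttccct
TNMD: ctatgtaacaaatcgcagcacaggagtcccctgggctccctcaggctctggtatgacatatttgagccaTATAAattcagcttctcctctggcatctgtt
CDX2: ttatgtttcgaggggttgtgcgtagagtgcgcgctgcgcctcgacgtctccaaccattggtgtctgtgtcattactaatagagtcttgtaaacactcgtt

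TATAA on the gene's own strand began 30 bases before the start in TMSB10, 28 in FN1, 27 in ACTA2 and 31 in TNMD, and it was not in the windows of TMSB4X and CDX2. Nor was it in the windows read but not printed, those of SPARC, VIM, KRT8 and the other start of ACTA2, so 4 of 10 windows held it. The motif letters were chosen after these windows had been seen. Across 21608 promoters of 15341 matched genes, 6.56% held TATAA on the gene's strand in these 100 bases. The share was 15.1% among genes at 0 in both libraries, 3.03% from 1 to under 10 FPKM, 3.62% from 10 to under 100 and 9.36% at 100 FPKM and over, so it was highest at both ends of the range. GGGCGG on either strand was in 41.0% of all, in 20.4% of promoters of genes at 0 and in 47.3% to 50.9% of those from 1 FPKM upward. A match of letters is a description and not a binding site. Exon length was lowest at both ends, with a median of 2653 bases for genes at 0, 5978 for genes from 1 to under 10 FPKM and 3346 for genes at 100 and over.

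The extracellular matrix was the most completely expressed of the structural lists. Of its 77 genes, 74 had at least 1 FPKM, 65 had at least 10 and 27 had at least 100, and the median was 56.7 FPKM beside 2.38 over all protein-coding genes. Besides the matrix genes already named, TGFBI, an adhesion protein induced by TGF-beta, stood at 1002 and 892 FPKM, and COL1A2, a chain of type I collagen, at 806 and 807. COL1A1, the other chain, stood at 445 in library 1 and 587 in library 2, and the libraries were further apart for it than for COL1A2. PPIB, a chaperone of collagen folding, stood at 779 and 814. COL15A1, PRELP and MFAP5 were at 0. Over the 44 collagen genes, 34 had at least 1 FPKM, 8 had at least 100, and together they took 1.11% and 1.16% of the sum.

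Of the 47 genes of the fibroblast and mesenchyme list, 44 (93.6%) had at least 1 FPKM, beside 59.2% of all genes, and 41 had at least 10. Its median was 77.3 FPKM. FBLN5, a fibulin that organises elastin, stood at 696 and 575 FPKM. POSTN, the matricellular protein periostin, stood at 346 and 313. The surface proteins THY1 (83.8 and 87.0), PDGFRB (49.8 and 50.9) and PDGFRA (32.3 and 29.8), which mark stromal cells in many organs, were all above 10 FPKM. DPT and MFAP5 were at 0 in both libraries, and PI16, a surface marker of adventitial fibroblasts, was at 0 and 0.226.

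Many contractile genes were abundant. Of 30 smooth muscle genes, 26 (86.7%) had at least 1 FPKM, beside 59.2% of all genes, and 10 had at least 100. TAGLN, an actin-bundling protein, stood at 904 and 848 FPKM, ACTA2, smooth muscle alpha-actin, at 719 and 656, and TPM2 at 483 and 451. MYL9, a myosin regulatory light chain, stood at 221 and 395, the widest gap among the members of this list. ACTG2, the gamma-actin of visceral smooth muscle, stood at 130.03 and 100.8, and CNN1, the calponin of smooth muscle, at 75.3 and 67.8. Other genes of mature smooth muscle were low. MYH11, its myosin heavy chain, was at 0, MYOCD, the coactivator myocardin, at 0.170 and 0, and DES, desmin, at 0.749 and 1.08. Heart and skeletal muscle genes were mostly low, with 10 of 28 at 1 FPKM or more, TNNT1 highest at 12.8 and 11.7, and TTN, MYH6, MYH7 and TNNT2 at 0.

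Of 26 cartilage, bone and tendon genes 14 (53.8%) had at least 1 FPKM, beside 59.2% of all genes. TNMD, the tendon membrane protein tenomodulin, was the highest at 86.8 and 80.9 FPKM. The tendon genes SCX and MKX were lower, with SCX, the tendon factor scleraxis, at 41.4 and 37.9, and MKX, a homeobox factor of tendon, at 19.3 and 18.1. Of cartilage genes, COL9A2 stood at 51.6 and 45.1, COL11A1 at 48.1 and 41.9, COL2A1 at 4.83 and 3.71 and ACAN at 3.25 and 2.32. SPP1, the secreted phosphoprotein osteopontin of bone and other tissues, stood at 53.8 and 41.0 FPKM. SP7 and IBSP, genes of bone-forming cells, and COL10A1 of hypertrophic cartilage were at 0.

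**Figure D3:**
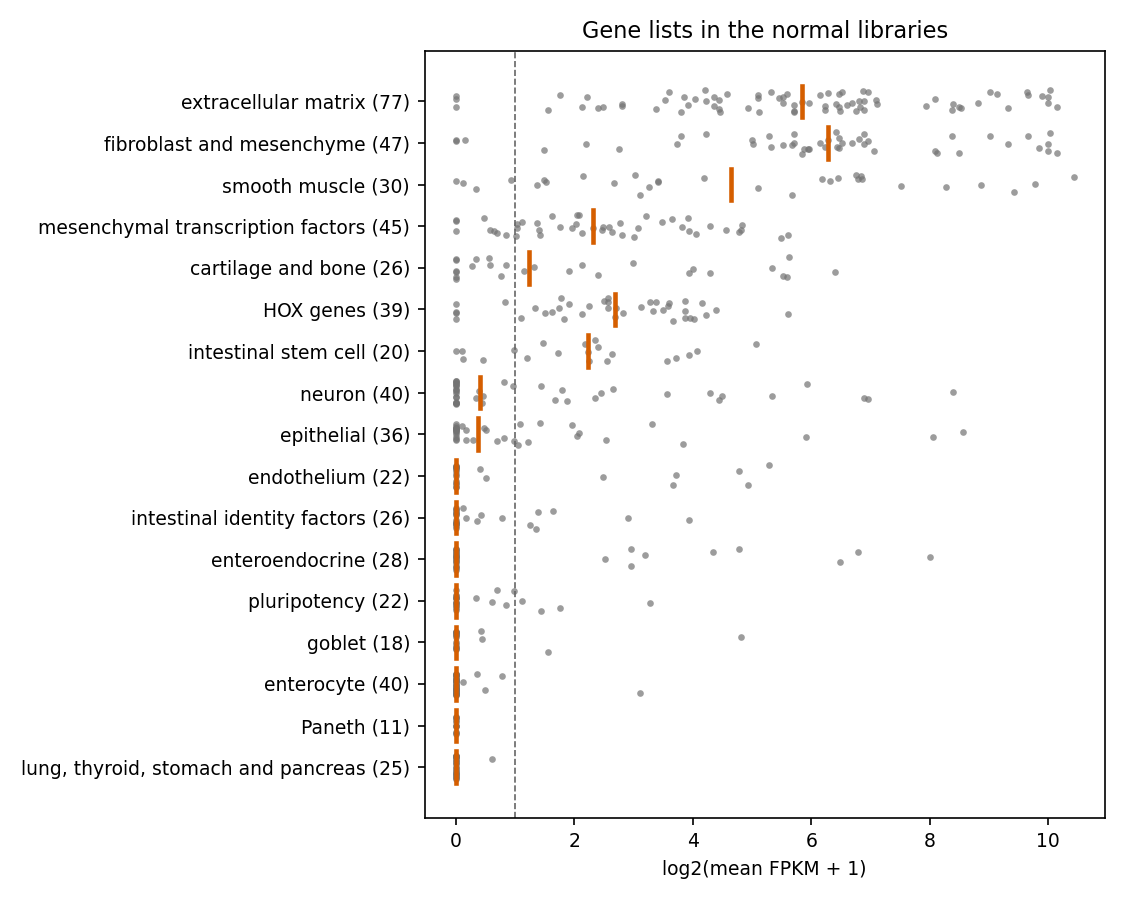
Mean level of each gene of 17 lists as log2(FPKM + 1), with the number of genes in parentheses, the median as an orange bar and 1 FPKM as a dashed line. Matrix, mesenchymal and smooth muscle genes reach from 0 to above 10 on this scale, and Paneth genes all lie at 0.

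The epithelial list was split. Of its 36 genes, 13 (36.1%) had at least 1 FPKM and 14 (38.9%) were at 0, against 59.2% and 29.3% of all genes. Only KRT8, KRT18, JUP (plakoglobin, also a protein of mesenchymal junctions, at 62.2 and 56.4 FPKM) and SPINT2 (a protease inhibitor, at 14.01 and 12.5) were above 10 FPKM. DSP, the desmosomal protein desmoplakin, stood at 9.69 and 8.24 and DSG2 at 5.04 and 4.52. EPCAM, the pan-epithelial adhesion molecule, was at 0.622 and 0.614 FPKM. Besides CDH1, the splicing regulators ESRP1 and ESRP2, the epithelial factor GRHL2, the claudins CLDN3 and CLDN7, the protease gene ST14 and KRT20 were at 0. Over the keratin family 7 of 55 genes were at 1 FPKM or more and 42 at 0, and of 24 claudins 5 reached 1 FPKM and none 10.

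Junction genes were unevenly present, with 16 of 36 (44.4%) at 1 FPKM or more and 13 (36.1%) at 0. The shares over all genes were 59.2% and 29.3%. CDH11, the cadherin of mesenchymal cells, stood at 137 and 109 FPKM, and CDH2, N-cadherin, at 62.2 and 54.1. The catenins CTNNA1 (102 and 85.5) and CTNNB1 (76.9 and 62.4), which link any classical cadherin to actin, were of the same order. TJP1, the scaffold ZO-1, stood at 10.5 and 10.0, while OCLN, occludin, was at 0.181 and 0.264 FPKM.

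The counts of this paragraph are read against all genes, of which 29.3% were at 0 and 59.2% reached 1 FPKM. Of 40 enterocyte genes, 35 (87.5%) were at 0 in both libraries and 1, CES2 (a carboxylesterase also made in liver, at 8.02 and 7.30 FPKM), passed 1 FPKM. The genes at 0 included SI and LCT, the enzymes sucrase-isomaltase and lactase, ALPI, intestinal alkaline phosphatase, FABP1 and FABP2, fatty acid carriers, APOA1 and APOA4, apolipoproteins, and the sugar and peptide carriers SLC5A1 and SLC15A1. All 11 Paneth genes were at 0, among them DEFA5 and DEFA6. Of 18 goblet genes 14 were at 0, including TFF3, SPDEF and ATOH1. CREB3L1, a factor of secretory cells that fibroblasts also express, stood at 23.6 and 30.4 FPKM and GALNT12, a mucin-type glycosyltransferase, at 2.13 and 1.74. Of 13 genes of tuft and M cells 9 were at 0, POU2F3 and GP2 among them, and 3 reached 1 FPKM. These were TNFAIP2 at 3.50 and 4.11 and the tuft cell genes AVIL, a villin relative, at 2.50 and 2.84 and DCLK1, a kinase also made in neurons, at 3.33 and 1.47.

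The enteroendocrine list held 9 genes (32.1%) above 1 FPKM and 19 (67.9%) at 0 out of 28, against 59.2% and 29.3% of all genes. Both peptide precursors and genes of peptide processing and storage were present. TAC1, the precursor of substance P, stood at 275 and 238 FPKM, CPE, a carboxypeptidase of peptide processing, at 117 and 101, and SCG2, the granule protein secretogranin II, at 98.0 and 79.2. CHGB, the granule protein chromogranin B, stood at 8.75 and 7.49. The peptide hormone genes NTS, neurotensin, and SST, somatostatin, stood at 6.87 and 6.60 and at 5.18 and 4.28. The gut hormones GCG, GIP, CCK, PYY, GHRL, MLN and SCT and the factors NEUROG3 and NEUROD1 were at 0. Neurons also express TAC1, CPE and SCG2.

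Of 26 factors of intestinal identity, 6 (23.1%) had at least 1 FPKM and 15 (57.7%) were at 0, against 59.2% and 29.3% of all genes. After SOX9, GATA6, a zinc finger factor of endoderm and of several mesodermal tissues, stood at 6.80 and 6.19 FPKM, PPARG, a lipid-sensing nuclear receptor, at 2.05 and 2.22 and ONECUT2 at 1.78 and 1.48. CDX1, HNF4A, HNF4G, FOXA1, FOXA2, ISX and PDX1 were at 0 together with CDX2. GATA4 was at 0.165 and 0.402. Of 15 genes of definitive endoderm only GATA6 reached 1 FPKM, and SOX17, FOXA2 and CER1 were at 0.

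In the stem cell list 15 of 20 genes (75.0%) had at least 1 FPKM, beside 59.2% of all genes. SMOC2, a matrix protein of crypt stem cells that stromal cells also make, stood at 33.9 and 31.0 FPKM, EPHB2, an ephrin receptor, at 17.1 and 14.5, BMI1, a Polycomb protein of many tissues, at 13.2 and 11.2, and HOPX, a homeodomain-only protein, at 10.9 and 10.9. ASCL2 and OLFM4, which are narrower in the gut, were at 0.175 and 0.167 in library 1 and at 0 in library 2. SOX9 stands in 6 of the lists, and 295 of the 1416 listed genes stand in more than 1, so the lists are not independent of each other.

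Pluripotency genes were low or at 0. POU5F1, NANOG, LIN28A and ZFP42 were at 0 in both libraries, SOX2 was at 0.884 and 0.714 FPKM, and DPPA4, a chromatin protein of stem cells, was the highest of 22 at 9.60 and 7.81. Genes of the cell cycle were present. Of 38 proliferation genes, 37 (97.4%) had at least 1 FPKM, beside 59.2% of all genes, and 21 had at least 10. The inhibitors of division CDKN1A and CDKN1C are part of this list and of both counts. CDK4, a G1 kinase, stood at 73.4 and 84.1, PCNA, the replication clamp, at 55.8 and 48.4, and CDK1 at 18.8 and 17.9, while MKI67, the Ki-67 antigen, stood at 2.53 and 2.94. CDKN1A, the inhibitor p21, was as high as CDK4 at 76.6 and 74.7 FPKM.

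Neuronal genes were present only in part, with 16 of 40 (40.0%) at 1 FPKM or more, below the 59.2% of all genes. While 3 were above 100, 18 were at 0, a larger share than the 29.3% of all genes. UCHL1, a ubiquitin hydrolase abundant in neurons, stood at 335 and 337 FPKM. NEFM, a neurofilament protein, stood at 128 and 119, STMN2, a tubulin-binding protein of growing axons, at 122 and 114, and TUBB3, the neuronal beta-tubulin, at 58.6 and 60.9. The RNA-binding proteins RBFOX3, ELAVL3 and ELAVL4 and the transmitter enzymes CHAT, TH and NOS1 were at 0. Glial and neural crest genes were lower. NES, the filament protein nestin, stood at 41.7 and 37.9, and SOX10 and GFAP were at 0.

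The lists of other lineages are read against the 59.2% of all genes that reached 1 FPKM. Of 22 endothelial genes 6 reached 1 FPKM, led by ENG (39.9 and 36.5 FPKM), EGFL7 (28.3 and 30.9), EMCN (28.9 and 23.8), FLT1 (12.8 and 11.5) and FLI1 (12.98 and 10.5), while PECAM1, CDH5, KDR and VWF were at 0. Of 27 blood and immune genes 2 reached 1 FPKM, CORO1A (10.3 and 10.5) and FCER1G (1.02 and 1.17), and PTPRC was at 0.524 and 0.345. Of 18 liver genes CPS1 (3.03 and 2.71) and CYP2E1 (1.05 and 1.13) reached 1 FPKM, and ALB and AFP were at 0. None of 25 genes of lung, thyroid, stomach and pancreas did, and 24 of them were at 0. Of 12 fat cell genes 4 reached 1 FPKM, FABP4 highest at 2.75 and 2.74, with ADIPOQ and PLIN1 at 0. Of 15 mesothelial genes 5 did, led by ALDH1A2 (17.7 and 21.8), a retinoic acid synthesis enzyme, and WT1 (5.10 and 5.90), with MSLN and UPK1B at 0. Of 12 pericyte and interstitial cell genes 8 (66.7%) did, near the share of all genes. They were led by RGS5 (25.1 and 20.2), NOTCH3 (20.3 and 18.9) and MCAM (13.96 and 11.6), and KIT was at 0.392 and 0.291. Of 25 genes of stratified and placental epithelium 4 did, led by KRT10 (13.4 and 15.5) and KRT17 (5.08 in both), with KRT14 and IVL at 0. Of 19 kidney and gonad genes 8 did, HOXD11 (16.2 and 17.5) and AMH (15.6 and 17.8) among them, with PAX2 and PAX8 at 0.

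Of 705 transcription factor genes, 389 (55.2%) had at least 1 FPKM, 129 at least 10 and 5 at least 100, and 214 (30.4%) were at 0, close to the shares over all genes. YBX1, a cold shock protein that binds DNA and mRNA, was the highest at 237 and 226 FPKM. Pseudogenes named after it held 24.1% of its level. ID3 and ID1, which bind and block basic helix-loop-helix factors and are targets of BMP signaling, stood at 166 and 168 and at 132 and 125. ATF4, the factor of the integrated stress response, stood at 130.1 in library 1 and 172 in library 2. The TALE homeobox gene MEIS3, a partner of HOX proteins, was the fifth at 104 and 120, with MEIS1 at 63.6 and 58.5 and MEIS2 at 49.8 and 46.6.

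Genes of the immediate early response to growth signals and stress stood next. JUND was at 82.2 and 100.1 FPKM, EGR1 at 80.3 and 95.8 and JUNB at 75.3 and 82.4, all higher in library 2. YBX3, MAZ and USF2, a set of broadly expressed factors, stood between 57.3 and 70.5. XBP1, the factor of the unfolded protein response, stood at 51.5 and 46.2. The mesenchymal factors SNAI2 (48.5 and 46.6), a repressor of E-cadherin, PRRX1 (45.7 and 42.0), a limb and skeletal mesenchyme homeobox gene, and SCX were among the first 25, and no factor of intestinal identity was. The rest were HOXC10, HES1, TEAD2, NFE2L1, HIF1A, HMGA2, STAT3 and PBX2, between 37.3 and 48.8 FPKM. The libraries shared 23 of their 25 highest factors.

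**Figure D4:**
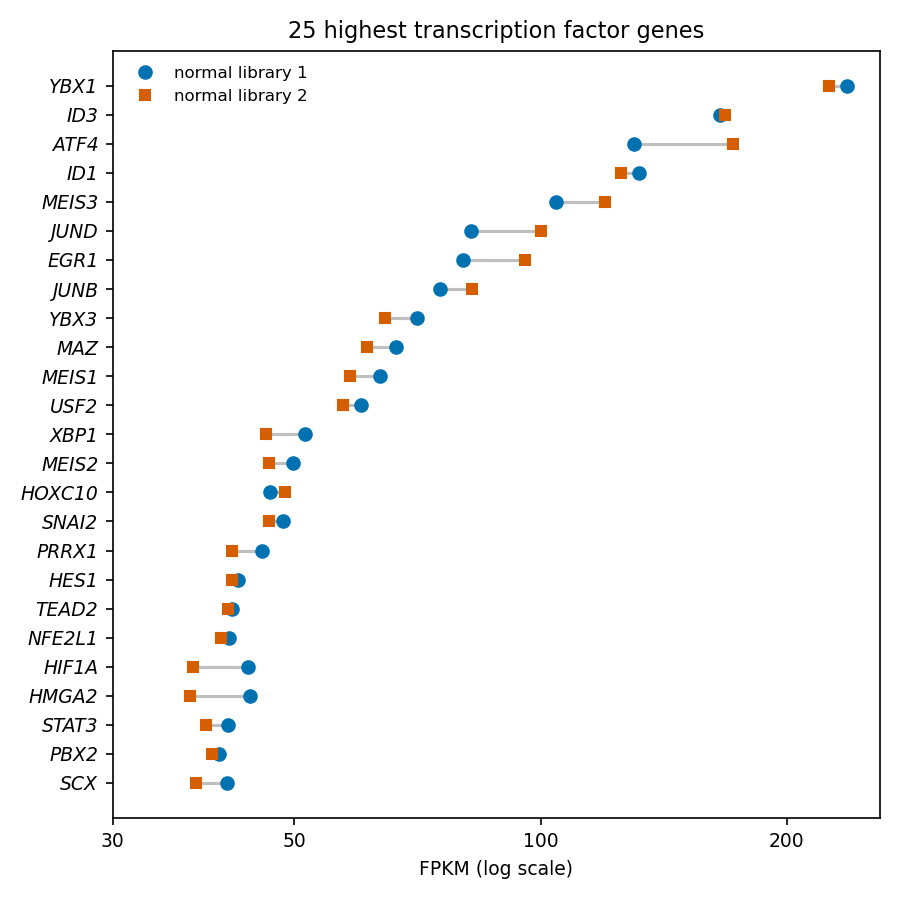
The 25 transcription factor genes with the highest mean, with FPKM on a log scale for normal library 1 (circles) and library 2 (squares). YBX1 is highest in both libraries, and ATF4, JUND and EGR1 show library 2 to the right of library 1.

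Of 45 mesenchymal transcription factors, 37 (82.2%) had at least 1 FPKM and 13 at least 10. HIC1, a zinc finger gene of stromal progenitors, stood at 24.9 and 30.1 FPKM, NFATC4 at 28.9 and 24.2 and TWIST1, a basic helix-loop-helix factor of mesenchyme, at 21.8 and 23.7. ZEB1 (8.54 and 8.01) and ZEB2 (3.44 and 2.39), both repressors of epithelial genes, were lower. TBX4, TBX5 and OSR2 were at 0. Factors of gut mesenchyme were sparser, with 7 of 17 (41.2%) at 1 FPKM or more, beside 59.2% of all genes. HLX stood at 12.7 and 15.7, the hedgehog effector GLI3 at 7.99 and 8.68 and BARX1, a stomach mesenchyme factor, at 5.24 and 7.27. FOXF1, a target of hedgehog signals from gut endoderm, was at 0.242 and 0.235, and FOXF2 and NKX2-3 were at 0.

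HOX genes, which give cells their position along the body axis, were widely present. Of 39, 34 (87.2%) were at 1 FPKM or more, beside 59.2% of all genes, and 13 at 10 or more. HOXC10 was the highest at 46.7 and 48.8 FPKM, followed by HOXA10 (20.6 and 19.3) and HOXB9 (17.3 and 18.0). All 4 clusters were represented, with 10 of 11 HOXA, 9 of 10 HOXB, 8 of 9 HOXC and 7 of 9 HOXD genes at 1 FPKM or more. The 10 genes of paralogue groups 9 to 11, which pattern the lower trunk and limb, all passed 1 FPKM and summed to 167 and 168. The 6 genes of groups 12 and 13, the most posterior ones, summed to 10.9 and 11.2, and HOXA13 and HOXD12 were at 0.

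Of 33 genes that the medium or the study's treatments act on, 29 (87.9%) had at least 1 FPKM, beside 59.2% of all genes. EGFR stood at 2.38 and 2.22 FPKM and its relative ERBB2 at 19.5 and 18.9, and the ligand genes EGF, EREG and BTC were at 0. LGR4, which binds R-spondins, stood at 32.3 and 25.8. PORCN, the acyltransferase that Wnt-C59 inhibits, stood at 4.56 and 4.70, and the WNT receptors FZD7 and FZD2 at 42.8 and 39.7 and at 30.001 and 32.5. Of the histone deacetylases that valproic acid inhibits, HDAC1 stood at 43.5 and 39.3, HDAC2 at 38.04 and 32.1 and HDAC3 at 40.1 and 35.2. TNFRSF1A, the main TNFα receptor, stood at 49.4 and 48.6 and the IFNγ receptor chains IFNGR1 and IFNGR2 at 16.7 and 15.7 and at 25.03 and 21.5. The aryl hydrocarbon receptor gene AHR stood at 3.38 and 2.75.

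Of 20 genes that WNT signaling commonly induces, 8 (40.0%) had at least 1 FPKM, beside 59.2% of all genes. DKK1, a secreted WNT antagonist, was by far the highest at 76.1 and 64.2 FPKM, CCND1 stood at 12.9 and 12.6, WIF1 at 8.17 and 6.54, LEF1 at 6.78 and 4.03 and MYC at 6.04 and 5.02. AXIN2 was at 1.46 and 1.16, RNF43 at 0.355 and 0.389, and SP5 was at 0. Of 112 secreted growth factors and cytokines 67 (59.8%) had at least 1 FPKM, close to the 59.2% of all genes, and 8 had at least 100. The heparin-binding growth factor PTN stood at 706 and 693, the chemokine CXCL12 at 619 and 532, the matricellular protein CCN2 at 558 and 476, MIF at 381 and 394 and MDK at 282 and 328. The hedgehog ligand genes SHH and IHH, through which gut epithelium signals to mesenchyme, were at 0, as was DHH.

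Genes of calcium signaling and protein absorption were also measured by PCR in the study. Of 8 such genes examined here, 7 had at least 1 FPKM in normal hIECs and 3 had at least 10. COL13A1, a transmembrane collagen, stood at 39.7 and 40.0 FPKM, PDGFD at 18.6 and 16.3, COL14A1 at 11.4 and 14.4 and SLC8A2, a sodium-calcium exchanger, at 6.69 and 7.74. CACNA1G, a T-type calcium channel, PTGER3, a prostaglandin receptor, and PLCD4, a phospholipase C, stood between 2.60 and 6.01. SLC15A1, the peptide carrier of enterocytes, was at 0. The 12 reference genes, from ACTB down to TBP (7.92 and 9.22), were all above 1 FPKM in both libraries.

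Levels in the 2 libraries were close. Across the 14106 genes above 0 in at least one, Spearman's correlation was 0.992 and Pearson's on log2(FPKM + 1) was 0.993, over genes that share the same 2 libraries and are not independent replicates. Over the 11799 genes with a mean of at least 1 FPKM, the median size of the log2(FPKM + 1) difference was 0.12, and 98.0% of genes differed by less than 0.5. Differences were centred below 0, with 8221 genes lower and 3578 higher in library 2 and a median of -0.08. After both libraries were rescaled to the same sum without mitochondrial genes the median was -0.06. A difference of 2-fold or more was found for 52 genes, 0.441% of those compared, with 21 higher and 31 lower in library 2. Of the 490 genes at 100 FPKM or more, 0 differed 2-fold, and of the 4334 from 1 to under 5 FPKM, 38 did. In the fibroblast and mesenchyme list the differences ran from -0.39 to 0.42, and in the epithelial list from -0.35 to 0.55. Of the 389 transcription factors with a mean of at least 1 FPKM, 1 differed 2-fold. It was FOSB, an immediate early factor, at 3.32 in library 1 and 9.10 in library 2.

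Of the 52 genes, 48 (92.3%) had an exon over an exon of another gene on either strand, against 53.4% of all genes compared. A read in such a stretch may belong to either gene. Several moved opposite to their neighbour, and whether reads were assigned differently within such pairs was not tested. FPKM is divided by length, so the sum of a pair is not a count of shared reads. AC004922.1 was at 11.1 FPKM in library 1 and 0.240 in library 2, while ARPC1A, an actin-nucleating subunit whose exons it overlaps, was at 54.6 and 61.2, and the pair summed to 65.8 and 61.4. AC025165.3 (7.65 and 2.61) fell beside TSFM, a mitochondrial elongation factor (3.19 and 11.2), with sums of 10.8 and 13.8. AC244197.3 (9.73 and 3.81) and IDS, a lysosomal sulfatase (8.27 and 12.8), summed to 18.0 and 16.6. ERCC5, a DNA repair nuclease, was at 11.9 and 5.15, and the read-through gene BIVM-ERCC5 at 1.73 and 6.32, summing to 13.6 and 11.5. C17orf49 was at 7.04 and 23.8 while the read-through gene RNASEK-C17orf49 was at 13.7 and 5.81. AP002990.1 (23.7 and 49.95) lies over the more abundant EEF1G, an elongation factor subunit (932 and 803). PCDHGA11 (9.55 and 3.14) shares exons with 21 other genes in its protocadherin cluster.

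Other genes among the 10 that differed most in each direction had no such partner, or a partner under 2 FPKM. AP1M1, an adaptor of clathrin transport, stood at 18.4 in library 1 and 5.16 in library 2, TRIO, a guanine exchange factor, at 16.2 and 5.32, and DTWD1 at 11.7 and 4.42. NPIPB5, of a family of near-identical copies, stood at 11.8 and 26.8. The rest fell short of 2-fold on the log2(FPKM + 1) scale. RBM8A, a core protein of exon junctions, stood at 45.2 and 23.1, EIF3F, an initiation factor subunit, at 37.6 and 71.5, and GSDMB, a gasdermin, at 3.28 and 6.90. Among abundant genes, RPL28 stood at 301 and 576, RPL23 at 330.4 and 596 and MYL9 as given above, with log2 differences of 0.93, 0.85 and 0.84. Of the 558 genes at 0 in one library, 23 reached 1 FPKM in the other, and the median value there was 0.239 FPKM, near a depth of 1.

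**Figure D5:**
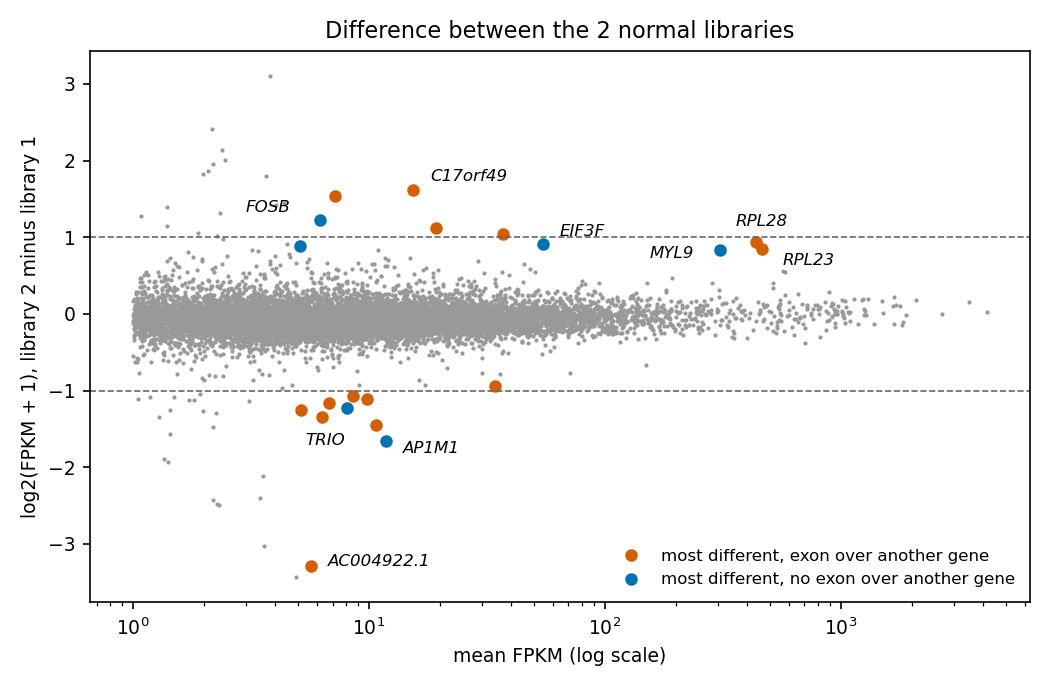
Difference in log2(FPKM + 1) between the 2 normal libraries (library 2 minus library 1) against the mean FPKM on a log scale, for the 11799 genes with a mean of at least 1 FPKM. The 20 most different genes with a mean of at least 5 FPKM are coloured by whether an exon lies over another gene, dashed lines mark 2-fold, and the spread narrows toward abundant genes.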

How the data were processed

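The authors prepared poly-A libraries without strand information from RNA with a high integrity number, trimmed reads with Cutadapt 3.7 and Sickle 1.33, aligned them to hg38 with HISAT2 2.2.1 and estimated genes with StringTie 2.2.0. Each table deposited by the authors gives 1 FPKM value per gene, and only the tables of the 2 normal libraries were read. Symbols, positions and overlaps came from GENCODE 44, which held 99.5% of the 60558 gene identifiers. The annotation release used by the authors is not given in the sources used here.

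FPKM holds no read counts, so no count test was run, and as a single group was described no test was made. Genes were ranked by mean FPKM, and the difference between libraries was taken on log2(FPKM + 1), which shrinks that of low genes, with 2-fold counted as a difference of 1 among genes with a mean of at least 1 FPKM. Genes named are the 25 most abundant, the 25 highest transcription factors, up to 6 members and the absent defining members of each list, further members given as examples, the markers, and the 10 genes in each direction that differed most between libraries among those of at least 5 FPKM. The members and lists were chosen with earlier results of these data known. Some genes that this rule names are not reported here. Symbols missing from the RefSeq promoter table included ACTB, COL3A1, KRT18, CDH1 and EPCAM. Python 3.11.15, pandas 2.3.3 and scipy 1.17.1 were used.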

Additional observations from a re-analysis of the deposited data

How the results depend on the processing

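No paired analysis was possible because a single group was described and no result comes from a test. Of 239 alternative values, 196 were classed as close to the ones reported and 43 as moved. All are counts, shares or overlaps, which have no direction that could reverse. The class was wide, and it took in a change from 13 to 18 epithelial genes on rescaling without mitochondrial genes. Rescaling so that protein-coding genes outside the mitochondrial genome sum to 1000000 raises every level by construction, so 8863 genes passed 10 FPKM, 1620 passed 100, 277 transcription factors passed 10 and 3 enterocyte genes passed 1. Keeping only genes with no exon over another gene removes genes by construction and left 5504, 2284 and 223 genes at 1, 10 and 100 FPKM, 3864 at 0, 41.3% of the sum in the top 100, 10 of the 25 and 38 of the 100 most abundant genes, and 1 gene higher and 3 lower by 2-fold in library 2. Ranking all genes, with mitochondrial and non-coding ones, put 41.3% of the sum in the top 100 and kept 9 of the top 25. A minimum of 2 FPKM left 3 intestinal factors, and 0.5 FPKM gave 2 enterocyte genes. A pseudocount of 0.1 gave 34 genes higher and 51 lower by 2-fold, and a mean of at least 5 FPKM gave 5 and 9. Of 155 alternative values for other lists 22 moved. Leaving out either library changed no count by over 1.5 times. With 2 libraries of 4.67 and 6.11 gigabases, a gene under a depth of 1 is listed at 0, so expression below 0.164 FPKM in library 1 and 0.214 in library 2 was not detectable.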

Other observations

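Several abundant protein-coding genes stood in none of the lists and were picked after their values had been seen. S100A11, a calcium-binding protein, stood at 1063 FPKM in library 1 and 1085 in library 2. Iron storage genes FTH1 (949.8 and 1078) and FTL (937 and 941) and the membrane protein gene IFITM3 (801 and 977) were among the first 54. CRABP2, a carrier of retinoic acid, stood at 308 and 341. IGFBP2 (685 and 658), IGFBP7 (580.0 and 486) and IGFBP3 (445 and 358), which bind insulin-like growth factors or act beside them, and the lipid carrier APOE (329 and 371) were of the same order. TAC3, the precursor of neurokinin B, stood at rank 272 with a mean of 172 ± 5.80 (SD, n = 2). The stromal gene ISLR had a mean of 170.1 ± 16.4, the surface proteoglycan GPC3 of 169 ± 14.4 and the YAP target ANKRD1 of 214 ± 28.9.

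Outside the protein-coding genes, the imprinted long non-coding RNA H19, expressed in fetal tissues, stood at 1358 FPKM in library 1 and 1829 in library 2. Its imprinted neighbour IGF2 stood at 161 and 223, and the imprinted genes DLK1 and MEST at 122 and 142 and at 240.1 and 216. DNM3OS, an antisense RNA of mesenchyme, stood at 109 and 101. Exons of H19, MEST and DNM3OS overlap other genes, and without strand information their levels are uncertain. The non-coding genes FP236383.3 (603 and 1013) and FP671120.4 (584 and 965) were higher in library 2, the library with the larger mitochondrial share.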
